A study of Mus musculus with 13 samples.

Results

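Messenger RNA of the receptors that receive glutamate at excitatory synapses, and of the scaffold proteins that hold those receptors in the postsynaptic membrane, was examined in the hippocampus of mice that carry a gene trap in 1 copy of Kmt2d. The genes were taken from a list of 37: the subunits of AMPA, kainate, NMDA and delta receptors, the metabotropic glutamate receptors, the MAGUK, DLGAP, SHANK and HOMER scaffolds, and the alpha and beta subunits of calcium/calmodulin-dependent protein kinase II. A gene was represented by a probe set that the platform annotation gives to that gene alone, and, where a gene had more than 1, by its brightest one, taken as the mean of all 13 arrays. By this rule 36 of the 37 genes were measured, among 19938 genes in all. Grin1, the obligatory NMDA receptor subunit, is not analysed here because the annotation used lists no probe set for it, alone or shared with other genes. The 36 genes fall into 4 AMPA, 5 kainate, 5 NMDA and 1 delta receptor subunits, 6 metabotropic receptors, 4 MAGUK, 3 DLGAP, 3 SHANK and 3 HOMER scaffolds, and 2 kinase subunits.

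Kmt2d encodes a methyltransferase that places methyl groups on lysine 4 of histone H3, and loss of 1 human copy causes Kabuki syndrome, which includes intellectual disability. The whole hippocampus was profiled, with 1 mouse to an array. Experiment 1 held 4 Kmt2d+/+ (wild-type) and 3 Kmt2d+/βGeo (heterozygous) mice with no injections, and experiment 2 held 3 Kmt2d+/+ and 3 Kmt2d+/βGeo mice given 3 saline injections per day. All 13 mice were C57BL/6J, 1 to 2 months old and on standard chow, and 12 are labelled female, the sex of wild-type replicate 3 of experiment 1 being labelled unknown. The βGeo allele is a gene trap present in every cell of the animal, so no cell type is targeted. Because the tissue is whole hippocampus, fewer cells of a type and less RNA per cell cannot be told apart. The design text describes them as separate microarray experiments, so the injections and anything else that differed between those experiments cannot be told apart.

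AMPA receptors carry most of the fast excitatory current, NMDA receptors admit calcium when glutamate release and depolarisation coincide, and kainate receptors act on both sides of the synapse, with a well-known role at mossy fibre synapses onto CA3 cells. Metabotropic receptors signal through G proteins: Grm5 couples to phospholipase C around the postsynaptic density, while Grm2, Grm3, Grm4, Grm7 and Grm8 lower cyclic AMP and act largely in axon terminals or, for Grm3, also in astrocytes. MAGUK proteins bind receptor tails, DLGAP proteins join MAGUK to SHANK proteins, and HOMER proteins join SHANK to metabotropic receptors, while the kinase is activated by calcium and strengthens the synapse.

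The promoters of the genes on which the results below turn were read from RefSeq windows on GRCm38.p6, where 24 of the 37 genes had an entry. They are shown because the kainate receptor gene Grik3 and the scaffold gene Homer3 had the lowest p-values for genotype, and because the NMDA receptor genes Grin2c and Grin2d were the genes called higher in experiment 2 as deposited. Each sequence is the 250 bases upstream of an annotated start, printed 5′ to 3′ on the strand of the gene, with CG dinucleotides in capitals. They lie at chr4:125490446-125490695 on the plus strand for Grik3, chr8:70282749-70282998 on the plus strand for Homer3, chr11:115267244-115267493 on the minus strand for Grin2c and chr7:45866682-45866931 on the minus strand for Grin2d.
Grik3: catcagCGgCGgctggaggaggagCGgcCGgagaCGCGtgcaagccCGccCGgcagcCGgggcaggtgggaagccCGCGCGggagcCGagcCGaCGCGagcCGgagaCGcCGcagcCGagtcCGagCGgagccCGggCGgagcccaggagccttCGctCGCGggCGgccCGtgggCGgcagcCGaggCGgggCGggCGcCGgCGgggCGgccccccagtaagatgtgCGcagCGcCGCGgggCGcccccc
Homer3: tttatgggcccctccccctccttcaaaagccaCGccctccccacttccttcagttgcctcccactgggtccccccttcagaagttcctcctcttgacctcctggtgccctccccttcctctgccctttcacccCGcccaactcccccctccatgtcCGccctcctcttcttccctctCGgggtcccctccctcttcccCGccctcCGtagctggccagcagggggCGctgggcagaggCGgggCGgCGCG
Grin2c: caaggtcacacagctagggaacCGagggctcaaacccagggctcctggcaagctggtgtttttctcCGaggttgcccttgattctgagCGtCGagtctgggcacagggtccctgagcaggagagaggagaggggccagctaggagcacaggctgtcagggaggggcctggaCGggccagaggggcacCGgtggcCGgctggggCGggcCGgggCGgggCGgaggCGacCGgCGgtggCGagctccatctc
Grin2d: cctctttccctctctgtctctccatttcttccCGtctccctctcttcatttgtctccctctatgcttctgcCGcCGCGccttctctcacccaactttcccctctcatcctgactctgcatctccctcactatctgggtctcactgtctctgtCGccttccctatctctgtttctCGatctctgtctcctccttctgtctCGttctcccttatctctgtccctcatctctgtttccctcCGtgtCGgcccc
The Grik3 sequence held 42 CG dinucleotides with a GC content of 82.0%, against 11 and 68.0% for Homer3. The Grin2c sequence held 15 with a GC content of 68.8%, and the Grin2d sequence 9 with 54.4%. Over the 38 windows of 300 bases (250 before to 50 after the start) of the 24 genes, the median GC content was 60.8% and the median number of CG dinucleotides 13.5, against 52.7% and 7 over all 32851 windows of that length. The GC box GGGCGG, searched on both strands, was in 18 of the 38 windows (47.4%) and in 35.7% of all windows. The TATA motif TATAAA was in 3 of the 38 (7.89%) and in 13.6% of all, and the cyclic AMP response element TGACGTCA in none of the 38 and in 1.79% of all. These 3 motifs do not overlap in sequence, a match is a description of letters only, and windows of 1 gene can share bases.

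The deposited values are log2 intensities, so a difference of 1 is a doubling. The probe set of Kmt2d that tracked the labels, 10432294, read 7.87 to 7.90 in wild-type and 7.17 to 7.47 in heterozygous mice of experiment 1. In experiment 2 it read 8.32 to 8.76 and 7.88 to 8.18, so the genotypes did not overlap in either experiment. The other, 10432298, read 9.82 to 9.83 and 9.84 to 9.95 in experiment 1. There every heterozygous mouse was narrowly above every wild-type mouse, the opposite direction. It overlapped in experiment 2, at 9.46 to 9.82 and 9.49 to 9.80. The exons that these probe sets cover were not examined here. The median of an array lay between 6.74 and 6.90 in experiment 1 and between 7.04 and 7.08 in experiment 2. Some markers of hippocampal neurons read above the array medians in every mouse: Prox1, of dentate granule cells, 8.21 to 10.28, Wfs1, of CA1 pyramidal cells, 9.88 to 10.88, and Slc17a7, the vesicular glutamate transporter of excitatory neurons, 11.87 to 12.72. Others did not. Tdo2, of dentate granule cells, read 5.27 to 6.95 and lay below the median of every array of experiment 2. Man1a, of CA1 pyramidal cells, read 7.03 in wild-type replicate 1 of experiment 2, where the median was 7.07. Of the 13 arrays, 3 stood apart by marker levels or by how often they were the highest or lowest of their group. Wild-type replicate 2 of experiment 1 had a mean over 7 measured striatal markers of 11.5, where the other 3 wild-type mice of that experiment had 8.78 to 8.85, and it was the highest or lowest of its group for 29 of the 36 genes (80.6%, against 67.1% of all genes). Heterozygous replicate 3 of experiment 2 was the highest or lowest of its group of 3 for 33 of the 36 (91.7%, against 73.5% of all genes). For heterozygous replicate 3 of experiment 1 this held for 30 of the 36 (83.3%, against 67.4% of all genes). Its median distance from the mean of the other mice of its group was only 0.0882 log2 units over the 36 genes. That distance was 0.176 for heterozygous replicate 3 of experiment 2, 0.14 for wild-type replicate 2 of experiment 1, and 0.0283 to 0.175 in the other arrays. Where leaving out a mouse moved a named difference by over 1.5 times, the value without it is given below; leaving out heterozygous replicate 3 of experiment 1 moved none of them that far. The choroid plexus, a tissue that borders the hippocampus, also varied. Its 8 markers had a mean of 8.33 to 9.86 in wild-type and 8.35 to 8.69 in heterozygous mice of experiment 1, where all 8 were below 0 for genotype (median -0.904; 5 at an unadjusted p under 0.05 in limma, against 3.5% of all genes, and 0 past the threshold). In experiment 2 the means were 6.86 to 8.55 and 7.75 to 8.77, and all 8 were above 0 (median 0.434). The part of this in the genotype differences below was not tested.

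The first question was whether loss of 1 Kmt2d copy was accompanied by a different level of these genes. It was not detected for any of them. With the experiments combined, 0 of the 36 genes passed an adjusted p of 0.05 in limma (0% of all 19938 genes did), and the smallest adjusted p of the 36 was 0.795. At an unadjusted p under 0.05 there were 5 of the 36 (13.9%), against 5.25% of all genes, and these 5 went in different directions. Of the 36 differences, 21 were above 0 and 15 below, with a median of 0.0149 log2 units (all genes: 0.00227). The 95% confidence intervals of 26 of the 36 genes lay within 0.3 log2 units of 0, which is 1.23-fold. The lowest bound was -0.68, for Grm4, and the highest 0.45, for Grm2, so for these genes larger changes than 0.3 lay within the interval.

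Among the ionotropic receptors, the differences of the 4 AMPA receptor subunits were all above 0, at 0.05 to 0.13 log2 units, and none passed the test. Gria3, the AMPA receptor subunit encoded on the X chromosome, had the lowest p of the 4. It read 11.83, 11.82, 11.84 and 11.78 in the wild-type and 11.84, 11.85 and 11.96 in the heterozygous mice of experiment 1. In experiment 2 the values were 10.98, 10.56 and 10.84 in the wild-type and 10.94, 10.99 and 11.05 in the heterozygous mice. The heterozygous mice were at or above most wild-type mice, but the groups overlapped in experiment 2 and met in experiment 1. The difference was 0.13 ± 0.07 (SE; limma adjusted p = 0.934; exact permutation p = 0.03, two-sided, 700 regroupings within experiments). In experiment 2 alone it was 0.20 ± 0.10 (limma adjusted p = 0.494; exact permutation p = 0.200). Without wild-type replicate 2 of experiment 2, the lowest mouse, these were 0.07 and 0.09. Gria4, which forms fast-gating AMPA receptors, overlapped in experiment 1 but read 8.81, 8.82 and 8.76 in the wild-type and 8.93, 8.93 and 8.96 in the heterozygous mice of experiment 2, a difference of 0.14 there with no overlap.

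The kainate receptor subunits held the widest spread. Grik3, a low-affinity kainate receptor subunit, had the lowest p of all 36 genes, each taken at its brightest probe set. It read 9.89, 9.46, 9.64 and 9.62 in the wild-type and 9.46, 9.65 and 9.26 in the heterozygous mice of experiment 1. Those of experiment 2 read 9.20, 9.55 and 9.43 in the wild-type and 9.09, 9.01 and 8.31 in the heterozygous mice. The genotypes overlapped in experiment 1 and not in experiment 2, where heterozygous replicate 3 was the lowest of all 13 mice. The difference was -0.38 ± 0.13 (1.30-fold lower; limma unadjusted p = 0.00808, adjusted p = 0.795; exact permutation p = 0.0157), and without that mouse -0.26. In experiment 2 it was -0.59 ± 0.18 (limma adjusted p = 0.347; exact permutation p = 0.1, the smallest that 3 against 3 allow), and -0.35 without that mouse. 

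Grik4, a high-affinity subunit concentrated in CA3 pyramidal cells, went the other way. It read 9.97, 9.95, 9.99 and 10.22 in the wild-type and 10.28, 10.19 and 10.38 in the heterozygous mice of experiment 1, and 9.20, 8.93 and 9.22 against 9.01, 9.42 and 9.46 in experiment 2. Only wild-type replicate 4 reached into the heterozygous range in experiment 1, and the groups overlapped in experiment 2. The difference was 0.22 ± 0.08 (1.16-fold higher; limma adjusted p = 0.826; exact permutation p = 0.0414), and in experiment 1 alone 0.25 ± 0.12 (limma adjusted p = 1.00; exact permutation p = 0.0857). The other 7 markers of CA3 and CA2 pyramidal cells had a mean of 9.29 to 9.42 in wild-type and 9.45 to 9.57 in heterozygous mice of experiment 1, and of 9.03 to 9.11 and 9.02 to 9.13 in experiment 2; their part in the Grik4 difference was not tested. Grik1, Grik2 and Grik5 differed by 0.009 to 0.09 log2 units with the experiments combined.

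Of the 5 NMDA receptor subunits measured, Grin2a, the subunit that rises as the forebrain matures, had the lowest p. It read 11.97, 11.87, 12.17 and 12.12 in the wild-type and 12.03, 12.06 and 12.20 in the heterozygous mice of experiment 1, and 11.09, 10.92 and 11.09 against 11.26, 11.20 and 11.22 in experiment 2. The genotypes overlapped in experiment 1 and did not in experiment 2. The difference was 0.12 ± 0.06 (limma adjusted p = 0.934; exact permutation p = 0.0671), and 0.07 with array weights. Grin2b, the subunit prominent in early development, differed by -0.02 ± 0.05, with a 95% interval of -0.13 to 0.10. Grid1, a delta receptor that binds cerebellin bridges to presynaptic neurexin, read 10.43, 10.35, 10.58 and 10.45 in the wild-type and 10.44, 10.36 and 10.40 in the heterozygous mice of experiment 1, and 9.79, 9.81 and 9.98 against 9.70, 9.66 and 9.44 in experiment 2. Its groups overlapped in experiment 1 and lay apart in experiment 2. The difference was -0.15 ± 0.07 (limma adjusted p = 0.934; exact permutation p = 0.0229), and in experiment 2 alone -0.26 ± 0.09 (limma adjusted p = 0.395; exact permutation p = 0.1). Without heterozygous replicate 3 of experiment 2, its lowest mouse, these were -0.11 and -0.18.

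**Figure D1:**
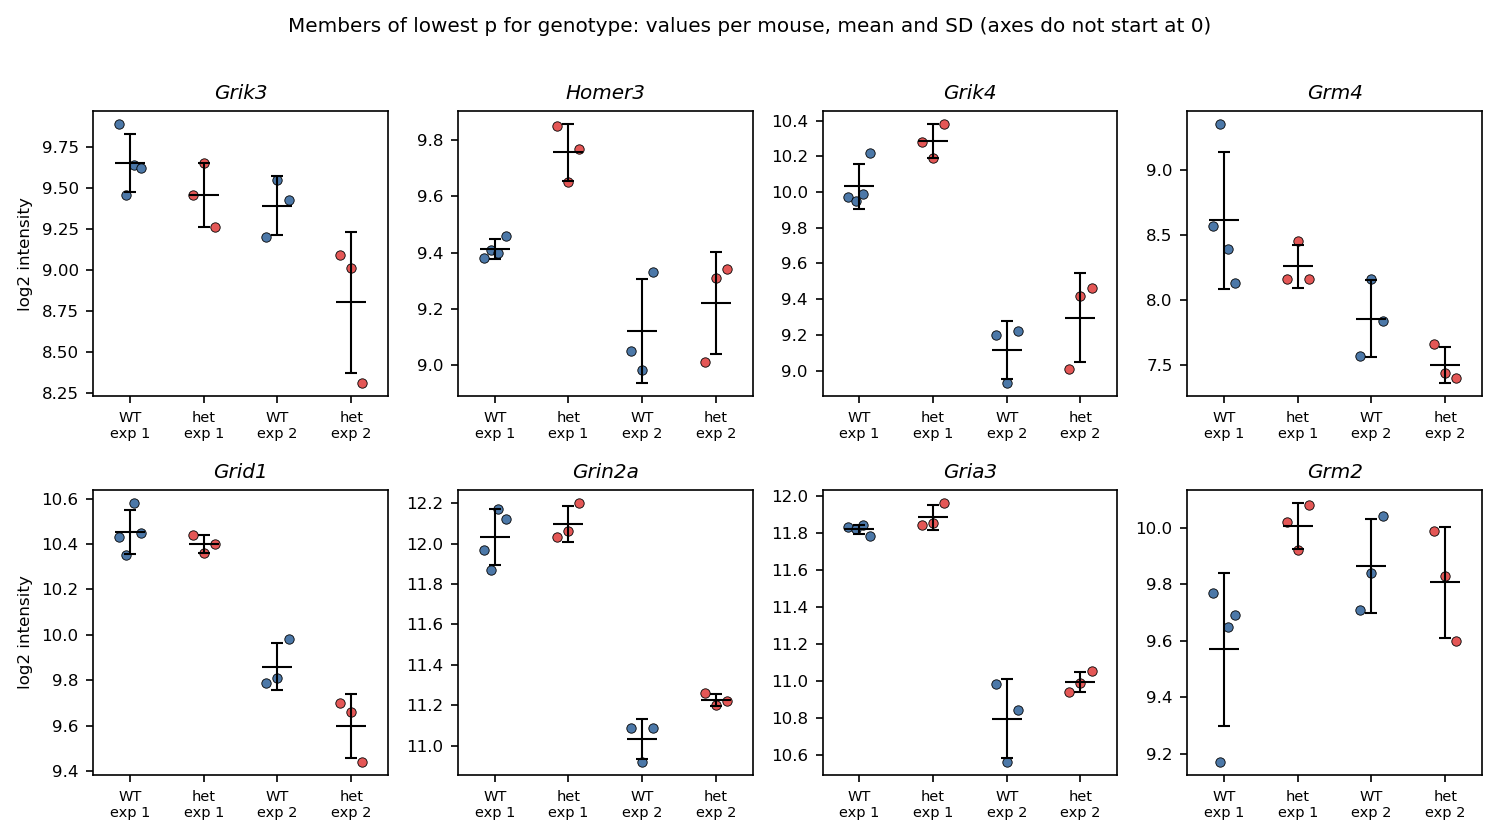
Log2 intensity of each mouse (points) for the 8 genes of lowest p for genotype, with the group mean and SD (bars), by genotype (WT, wild-type; het, heterozygous) and experiment. The vertical axes do not start at 0; Homer3 and Grm2 separate the genotypes in experiment 1 only, and Grik3, Grid1 and Grin2a in experiment 2 only.

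Among the metabotropic receptors, Grm2, which sits on mossy fibre and other presynaptic axons, differed most in experiment 1. There it read 9.77, 9.17, 9.65 and 9.69 in the wild-type and 10.02, 9.92 and 10.08 in the heterozygous mice, with no overlap. In experiment 2 it read 9.71, 9.84 and 10.04 in the wild-type and 9.99, 9.83 and 9.60 in the heterozygous mice, which overlapped throughout. The difference in experiment 1 was 0.44 ± 0.13 (limma adjusted p = 0.727; exact permutation p = 0.0571), and 0.31 without wild-type replicate 2, the lowest mouse. With the experiments combined it was 0.21 ± 0.11 (limma adjusted p = 0.934; exact permutation p = 0.137), and 0.13 without that mouse. The genotype difference of Grm2 was smaller in experiment 2 than in experiment 1 by 0.49 ± 0.20, which did not pass the test (limma adjusted p = 0.756). That contrast was -0.36 without wild-type replicate 2 of experiment 1, and -0.26 when heterozygous replicate 3 of experiment 2 was left out too. Beside it, the 12 dentate granule cell markers had a mean of 8.87 to 9.38 in wild-type and 9.51 to 9.59 in heterozygous mice of experiment 1, and 8.49 to 8.86 and 8.64 to 8.81 in experiment 2; in experiment 1, 11 of the 12 were above 0, 7 had an unadjusted p under 0.05 in limma (3.5% of all genes) and none passed the test, and their part in the Grm2 difference was not tested.

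Grm4, a presynaptic receptor that lowers cyclic AMP, read 8.57, 9.35, 8.39 and 8.13 in the wild-type and 8.16, 8.45 and 8.16 in the heterozygous mice of experiment 1, and 7.57, 8.16 and 7.84 against 7.66, 7.44 and 7.40 in experiment 2. The groups overlapped in both experiments. The difference was -0.35 ± 0.15 (limma adjusted p = 0.922; exact permutation p = 0.0671), -0.18 with array weights, and -0.23 without wild-type replicate 2 of experiment 1, the mouse whose striatal markers were high and whose Grm4 value was the highest of all 13. Grm5 read 12.13, 12.10, 12.16 and 12.11 in the wild-type and 12.04, 12.03 and 12 in the heterozygous mice of experiment 1, without overlap, but 10.78, 10.92 and 10.84 against 10.79, 10.90 and 10.93 in experiment 2. Its difference with the experiments combined was -0.04 ± 0.05.

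Among the scaffolds, Homer3 had the lowest p. It read 9.38, 9.41, 9.40 and 9.46 in the wild-type and 9.85, 9.65 and 9.77 in the heterozygous mice of experiment 1. In experiment 2 it read 9.05, 8.98 and 9.33 in the wild-type and 9.01, 9.31 and 9.34 in the heterozygous mice. The genotypes lay clearly apart in experiment 1 and overlapped in experiment 2. The difference was 0.23 ± 0.08 (1.17-fold higher; limma unadjusted p = 0.0098, adjusted p = 0.795; exact permutation p = 0.0214). In experiment 1 alone it was 0.34 ± 0.10 (limma adjusted p = 0.686; exact permutation p = 0.0286, the smallest that 3 against 4 allow), and it was 0.10 in experiment 2. The difference between these, -0.25 ± 0.15, did not pass the test (limma adjusted p = 0.773), and was -0.14 without wild-type replicate 3 or without heterozygous replicate 1 of experiment 2. Homer1, which also gives rise to a short form induced by neuronal activity, differed by -0.11 in experiment 1 and 0.20 in experiment 2, and the difference of 0.32 ± 0.18 between these did not pass either (limma adjusted p = 0.770). It was 0.21 without wild-type replicate 2 of experiment 1, and 0.18 when heterozygous replicate 3 of experiment 2 was left out too.

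The 4 MAGUK scaffolds stayed within -0.05 to 0.08 log2 units of the wild-type level with the experiments combined. Dlg4, which encodes PSD-95 and is the best-known postsynaptic scaffold, differed by -0.05 ± 0.09, with a 95% interval of -0.24 to 0.14. Dlg3, which encodes SAP102, differed by 0.00 ± 0.06; it read 8.54, 8.54 and 8.67 in the wild-type and 8.53, 8.49 and 8.5 in the heterozygous mice of experiment 2, narrowly without overlap. The 3 DLGAP scaffolds differed by -0.12 to 0.01 and the 3 SHANK scaffolds by -0.04 to 0.13. Camk2a, the abundant kinase subunit of excitatory neurons, differed by 0.02 ± 0.05 with an interval of -0.10 to 0.13, and Camk2b by -0.05 ± 0.08. Shank2 has 3 probe sets, which did not move alike: the one with the highest mean differed by 0.01 ± 0.06, while 10559341 differed by -0.39 ± 0.12 and 10559333 by -0.40 ± 0.14 (limma adjusted p = 0.989 for both, over every probe set). In experiment 1 alone, 10559341 was at -0.59 ± 0.15 and 10559333 at -0.64 ± 0.18, and neither passed the test.

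Counting over single mice, heterozygous and wild-type mice lay apart for 3 of the 36 genes in experiment 1, as they did for 7.22% of all genes. Grm2 and Homer3 were higher in every heterozygous mouse (4.47% of all genes) and Grm5 lower (2.75%). In experiment 2 there were 5, against 9.48% of all genes: Gria4 and Grin2a higher (4.32% of all genes) and Grik3, Grid1 and Dlg3 lower (5.17%). No gene of the 36 lay apart in the same direction in both experiments, as 0.321% of all genes did. In the tests within an experiment, 0 of the 36 genes passed in experiment 1, where 0.0201% of all genes did, and 0 in experiment 2, where 0% did. At an unadjusted p under 0.05 in limma there were 3 of the 36 in experiment 1 (3.5% of all genes) and 2 in experiment 2 (10.2% of all genes). For the difference of the genotype effects between the experiments, 0 of the 36 passed in limma (0% of all genes) and 1 had an unadjusted p under 0.05 (6.53% of all genes).

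**Figure D2:**
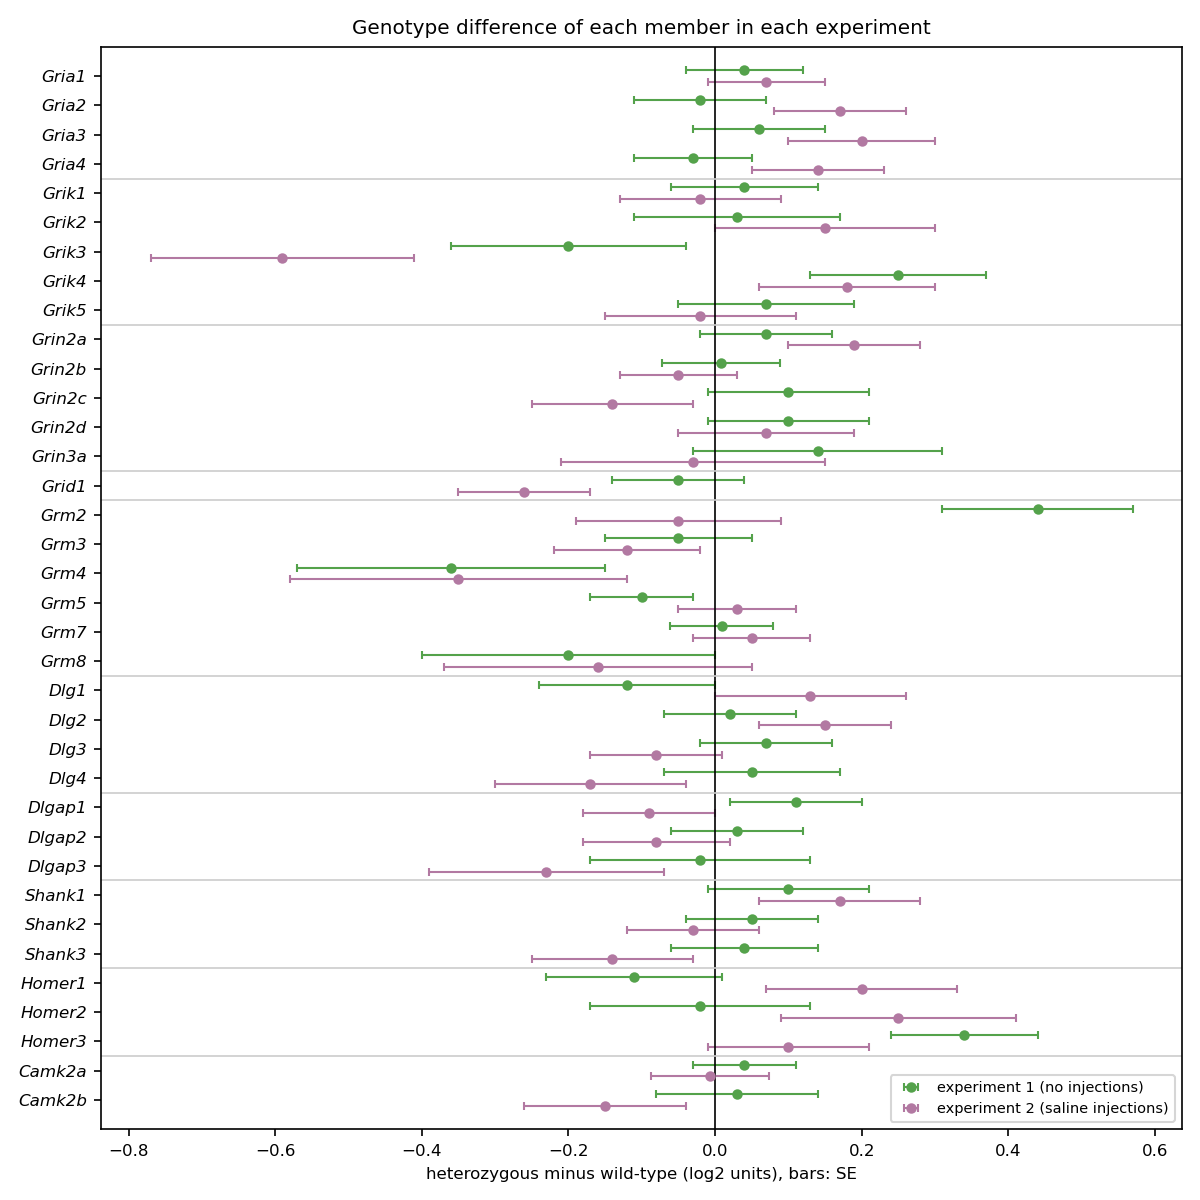
Heterozygous minus wild-type difference in log2 units (points) with its SE (bars) for the 36 genes, grouped by role, in experiment 1 (green, no injections) and experiment 2 (purple, saline injections). Most points lie close to 0; Grik3 in experiment 2 (-0.59) and Grm2 in experiment 1 (0.44) lie farthest out.

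**Figure D3:**
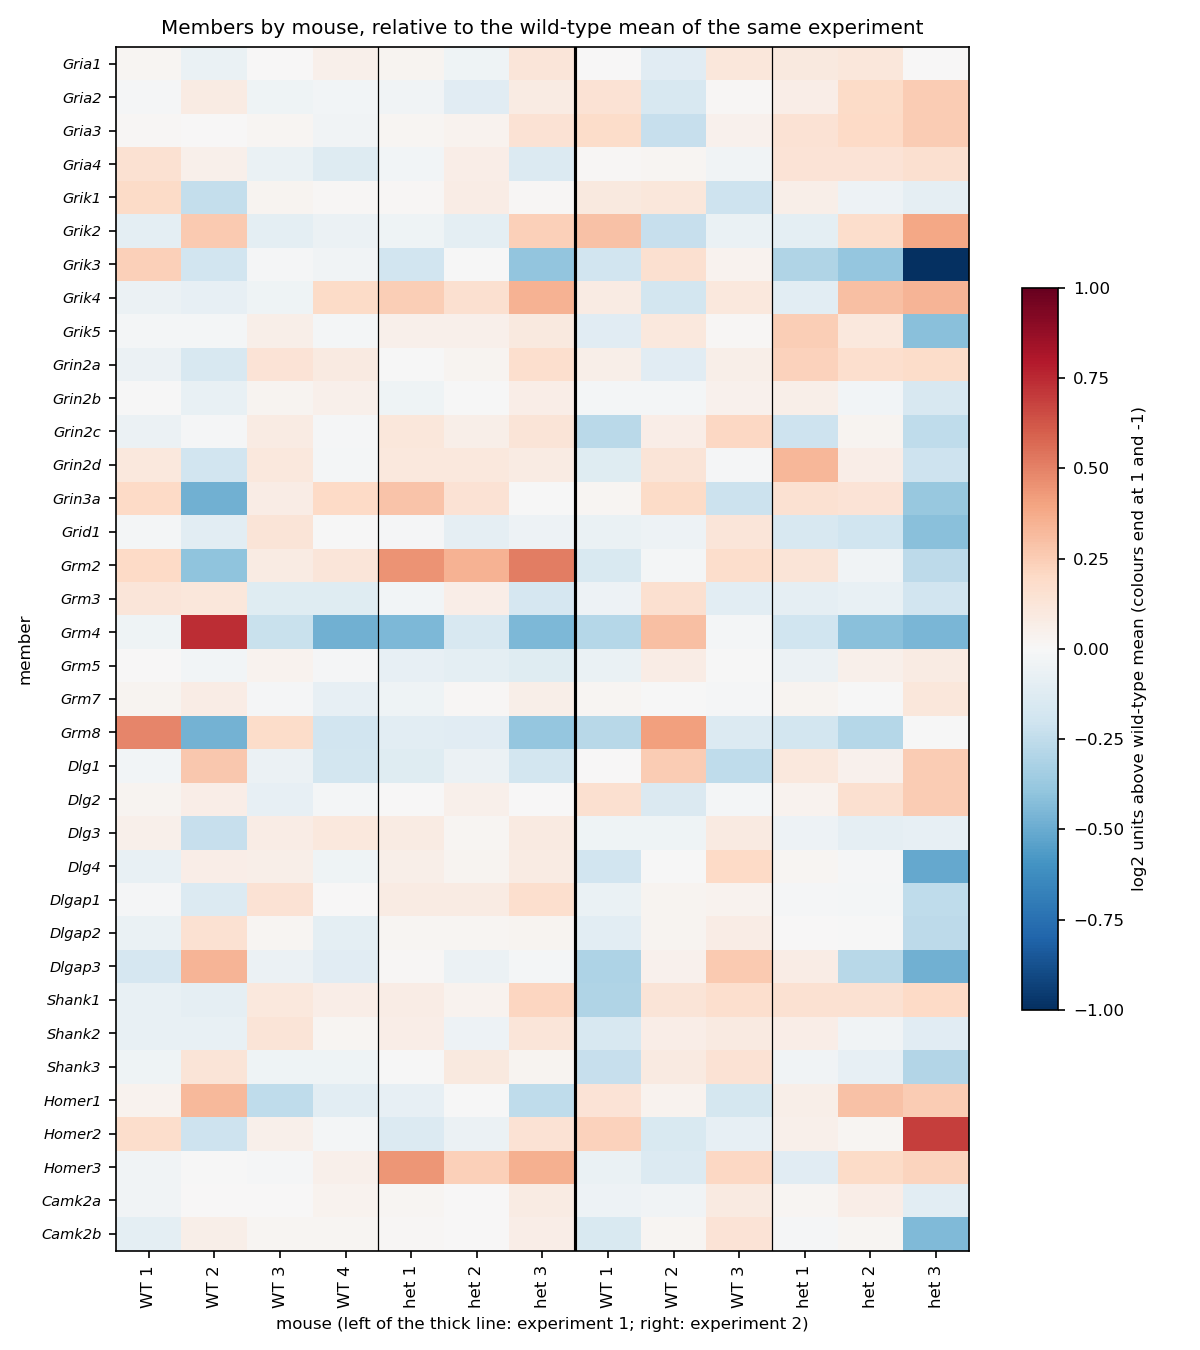
Each gene (rows) in each mouse (columns) as the difference in log2 units from the wild-type mean of the same experiment; red is above, blue below, and colours end at 1 and -1. The darkest cells are single mice: Grik3 in heterozygous replicate 3 of experiment 2 (-1.08, beyond the end of the scale) and Grm4 in wild-type replicate 2 of experiment 1 (0.74).

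Other genes of the glutamate synapse were counted from 5 lists, of which 96 of 103 genes were measured: other glutamate receptor subunits, receptor auxiliary subunits, synaptic adhesion molecules, postsynaptic signalling and trafficking proteins, and glutamate transport and metabolism. For genotype with the experiments combined, 0 of the 96 passed in limma (0% of all genes), 8 (8.33%) had an unadjusted p under 0.05 (5.25% of all genes), and 55 (57.3%) were above 0 (51% of all genes). The lowest p was that of Lzts1, a postsynaptic density protein, at -0.41 ± 0.09 (limma adjusted p = 0.306). Slc17a7, the vesicular glutamate transporter, differed by 0.17 ± 0.05 (limma adjusted p = 0.795). Nptx2, a secreted protein that clusters AMPA receptors, differed by 0.25 ± 0.11, and the adhesion molecules Lrrtm3 and Slitrk5 by -0.36 ± 0.14 and 0.14 ± 0.06. Camk2d, another subunit of the kinase, differed by -0.35 ± 0.16, Ppp1r9b, which encodes the spine protein spinophilin, by 0.12 ± 0.06, and Slc17a8, a second vesicular transporter, by 0.21 ± 0.09.

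The experiments differed far more than the genotypes. Over both genotypes, 28 of the 36 genes (77.8%) passed the test between the experiments in limma, which is close to the 77.2% of all genes that did. The directions were unequal: 26 of the 36 (72.2%) were lower in experiment 2, against 35.4% of all genes, and 2 were higher, against 41.8% of all genes. The median difference was -0.514 log2 units, against 0.0699 for all genes. Brightness moved with direction. Of the 36 genes, 31 belong to the brightest 4985 of the 19938 genes (mean of at least 8.99), among which 65.5% were lower, 17.9% higher and the median difference was -0.412. The SD of an array's values was 2.28 to 2.35 in experiment 1 and 2.13 to 2.17 in experiment 2, and the differences were therefore also computed on rescaled arrays. With each array centred on its median, 25 of the 36 were lower and 6 higher, where 6232 of all 19938 genes were lower and 10025 higher. With all 13 arrays quantile-normalised, which gives them the same distribution, 18 were lower (30.4% of all genes) and 7 higher (34.8% of all genes), and the median of the 36 was -0.188 (all genes: 0.0309). Under all 3 scalings, 18 of the 36 genes (50%) were called lower, against 24% of all genes, and 2 were called higher, against 25.6% of all genes. No share among the brightest 4985 genes was computed on the rescaled arrays, so these counts are not set against genes of like brightness.

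In the AMPA family, Gria2, Gria3 and Gria4 were lower in experiment 2 under all 3 scalings. Gria3 read 11.78 to 11.96 in the 7 mice of experiment 1 and 10.56 to 11.05 in the 6 mice of experiment 2, so the experiments lay apart in both genotypes. It fell by 0.96 ± 0.07 (1.95-fold; limma adjusted p = 1.64e-09), and by 0.63 after quantile normalisation. Gria4 read 9.92, 9.82, 9.70 and 9.64 in the wild-type and 9.74, 9.84 and 9.63 in the heterozygous mice of experiment 1, and every mouse of experiment 2, given above, lay below 9. It fell by 0.89 ± 0.06 (1.86-fold; limma adjusted p = 1.86e-09), and by 0.51 after quantile normalisation. Gria1, the principal AMPA subunit of CA1 plasticity, fell by only 0.29 ± 0.06 (limma adjusted p = 0.000206), and was at -0.05 and not called after quantile normalisation.

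Of the kainate receptor subunits, Grik2, Grik4 and Grik5 were called lower under all 3 scalings, Grik4 by the most, at -0.95 as deposited and -0.56 after quantile normalisation. Grik3 fell by 0.44 as deposited but was at -0.06 and not called after quantile normalisation. Grik1 was not called as deposited (0.07) or after quantile normalisation (0.15), and was called higher with each array centred on its median (0.17).

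The NMDA receptor subunits split. Grin2a read 11.87 to 12.20 in experiment 1 and 10.92 to 11.26 in experiment 2, and fell by 0.94 ± 0.06 (1.91-fold; limma adjusted p = 1.43e-09), and by 0.61 after quantile normalisation. Grin2b fell by 0.58, and was at -0.30 and still called after quantile normalisation. Grin2c, known mainly from cerebellar granule cells and astrocytes, and Grin2d, known mainly from interneurons, were the 2 genes called higher as deposited. Grin2c read 8.21, 8.26, 8.35 and 8.26 in the wild-type and 8.38, 8.33 and 8.40 in the heterozygous mice of experiment 1. In experiment 2 it read 8.42, 8.76 and 8.90 in the wild-type and 8.49, 8.72 and 8.44 in the heterozygous mice, all above the 7 mice of experiment 1. The difference was 0.31 ± 0.08 (1.24-fold; limma adjusted p = 0.00233), and 0.62 after quantile normalisation.

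Grin2d read 8.01, 7.72, 8.01 and 7.89 in the wild-type and 8.01, 8.01 and 7.99 in the heterozygous mice of experiment 1, and 8.08, 8.33 and 8.19 against 8.53, 8.27 and 7.99 in experiment 2. The experiments lay apart in wild-type mice, while heterozygous replicate 3 of experiment 2 was level with those of experiment 1. The difference was 0.28 ± 0.08 (1.21-fold; limma adjusted p = 0.00567), and 0.53 after quantile normalisation. In heterozygous mice alone neither passed, with 0.18 for Grin2c (limma adjusted p = 0.142) and 0.26 for Grin2d (limma adjusted p = 0.107). Grin3a, which lowers calcium entry through NMDA receptors, was at -0.14 ± 0.12 and not called. The delta receptor Grid1 fell by 0.69 ± 0.07 and was called lower under all 3 scalings.

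Among the metabotropic receptors, Grm4, Grm5 and Grm8 were called lower under all 3 scalings. Grm5 read 12 to 12.16 in experiment 1 and 10.78 to 10.93 in experiment 2, with a gap of over 1 log2 unit between the experiments. It fell by 1.22 ± 0.05 (2.32-fold; limma adjusted p = 5.46e-12), and by 0.90 after quantile normalisation. Grm3 fell by 0.40 as deposited and was at -0.04 and not called after quantile normalisation. Grm2 and Grm7 were not called as deposited, at 0.06 and 0.04, and were called higher after quantile normalisation, at 0.46 and 0.45.

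The MAGUK scaffolds held the largest difference of the 36 genes. All 4 were called lower under all 3 scalings. Dlg3 read 10.18, 9.90, 10.20 and 10.23 in the wild-type and 10.21, 10.15 and 10.22 in the heterozygous mice of experiment 1, and 8.49 to 8.67 in the 6 mice of experiment 2. The gap between the experiments was far wider than the range within either. Dlg3 fell by 1.61 ± 0.06 (3.06-fold; limma adjusted p = 2.07e-12), and by 1.24 after quantile normalisation. Dlg1, which encodes SAP97, read 10.74, 11.04, 10.71 and 10.59 in the wild-type and 10.65, 10.71 and 10.59 in the heterozygous mice of experiment 1. Experiment 2 gave 9.33, 9.58 and 9.07 in the wild-type and 9.43, 9.37 and 9.58 in the heterozygous mice, again with no overlap. Dlg1 fell by 1.33 ± 0.09 (2.51-fold; limma adjusted p = 1.33e-09), and by 0.93 after quantile normalisation. Dlg2, which encodes PSD-93, and Dlg4 fell by 0.75 and 0.56, and were at -0.40 and -0.32 after quantile normalisation.

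Of the 3 DLGAP and 3 SHANK scaffolds, none was called lower under all 3 scalings. Dlgap3, Shank1 and Shank3 fell by 0.33, 0.50 and 0.49 as deposited and were at 0.05, -0.14 and -0.09, not called, after quantile normalisation. Dlgap1, Dlgap2 and Shank2 were not called as deposited, at 0.10, -0.02 and 0.06, and were called higher after quantile normalisation, at 0.40, 0.38 and 0.45. For Dlgap1 this depended on the probe set: 10446592, its other probe set, was at -1.72 ± 0.08 (limma adjusted p = 5.92e-10 over every probe set). Shank2 also divided, with 10559341 at 0.71 ± 0.12 (limma adjusted p = 0.000155 over every probe set) and 10559333 at -0.17 ± 0.14.

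Of the HOMER scaffolds, Homer1 and Homer2 were called lower under all 3 scalings. Homer2 read 9.91, 9.53, 9.79 and 9.72 in the wild-type and 9.60, 9.68 and 9.88 in the heterozygous mice of experiment 1, and 8.47, 8.09 and 8.16 against 8.29, 8.26 and 8.93 in experiment 2. Heterozygous replicate 3 came closest to experiment 1, and the experiments did not overlap. Homer2 fell by 1.37 ± 0.11 (2.59-fold; limma adjusted p = 1.15e-08), by 1.02 after quantile normalisation, and at its other probe set by 0.68 ± 0.09. Homer1 read 10.24, 10.53, 9.95 and 10.10 in the wild-type and 10.12, 10.20 and 9.95 in the heterozygous mice of experiment 1, and 9.05, 8.95 and 8.74 against 8.97, 9.21 and 9.17 in experiment 2, also without overlap. It fell by 1.14 ± 0.10 (2.21-fold; limma adjusted p = 1.78e-08), and by 0.75 after quantile normalisation. Homer3 fell by 0.40 as deposited and was at -0.01 and not called after quantile normalisation. The kinase subunit Camk2a was at -0.09 and not called, with 13.17 to 13.29 in experiment 1 and 13.04 to 13.23 in experiment 2, while Camk2b fell by 0.36 and was at -0.12 and not called after quantile normalisation.

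**Figure D4:**
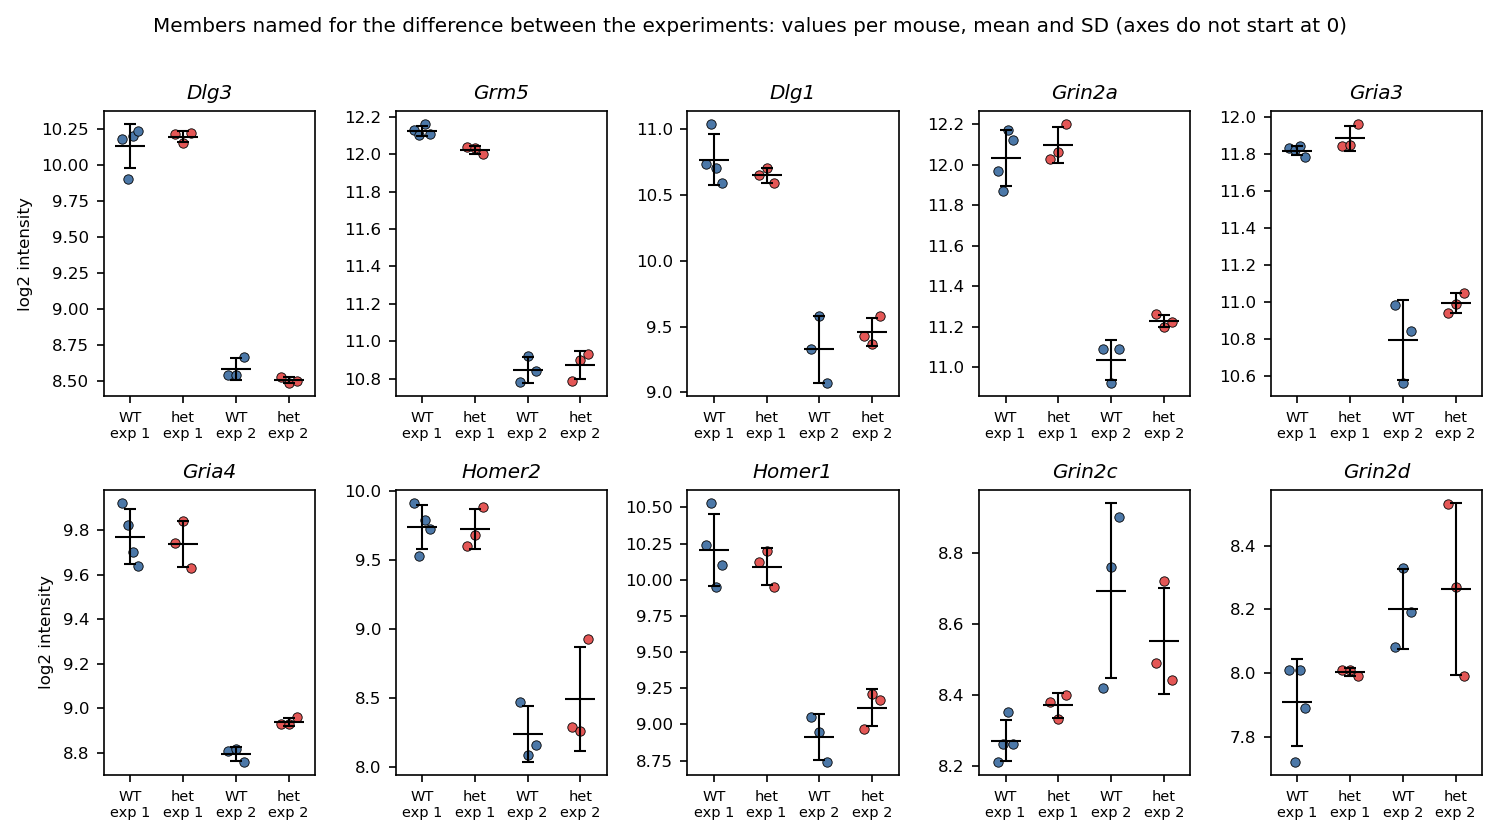
Log2 intensity of each mouse (points) for the 10 genes named for the difference between the experiments, with the group mean and SD (bars), by genotype (WT, het) and experiment; the vertical axes do not start at 0. The 8 genes from Dlg3 to Homer1 lie lower in every mouse of experiment 2, and Grin2c lies higher in every mouse.

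**Figure D5:**
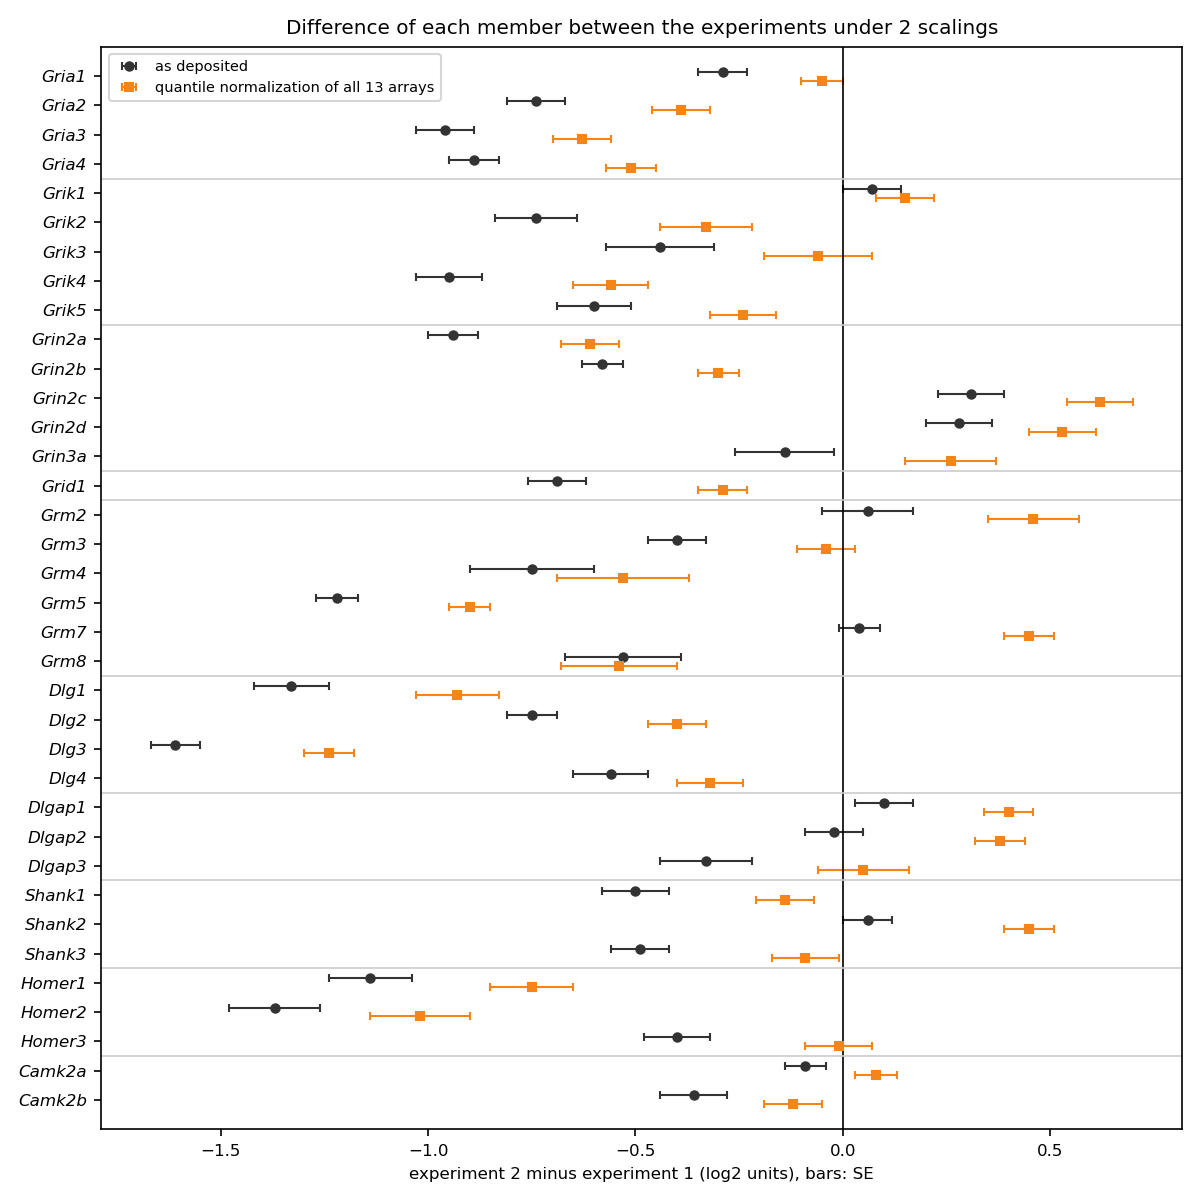
Experiment 2 minus experiment 1 in log2 units (points) with its SE (bars) for the 36 genes, as deposited (black circles) and after quantile normalisation of all 13 arrays (orange squares). Dlg3 lies farthest from 0 under both (-1.61 and -1.24), and the DLGAP and SHANK scaffolds lie at or above -0.14 after quantile normalisation.

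In wild-type mice the experiments lay apart for 24 of the 36 genes (68.6% of all genes), with 22 lower (31.3% of all genes) and 2 higher (37.3%). In heterozygous mice they lay apart for 27 (67.7% of all genes), with 26 lower (33.7% of all genes) and 1 higher (34%). They lay apart in the same direction in both genotypes for 23 of the 36 (22 lower and Grin2c higher), against 56.6% of all genes. By exact permutation over mice within genotypes, on the values as deposited, the 8 genes from Dlg3 to Homer1 and Grin2c reached p = 0.00143, the smallest that the design allows, and Grin2d p = 0.00571. Many others of the 36 reached that smallest value too. Among them were Gria1, Grm3, Homer3, Shank1, Shank3 and Camk2b, which were not called after quantile normalisation. The share of all genes that reached it was not computed.

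The lists of other synaptic genes were also mostly lower in experiment 2. Of the 96 genes, 66 (68.8%) were called lower and 15 (15.6%) higher in limma, against 35.4% and 41.8% of all genes, and 65.5% and 17.9% of the brightest 4985. Under all 3 scalings, 24% of all genes were called lower and 25.6% higher, which stand beside the counts under 3 scalings that follow. Of the 20 receptor auxiliary subunits measured, 16 were lower and 1 higher, and 11 were lower under all 3 scalings. Cnih2, which slows the closing of AMPA receptors, fell by 2.00 ± 0.07 (limma adjusted p = 2.35e-13; -1.69 after quantile normalisation). Cacng3, another AMPA receptor partner, fell by 1.58 ± 0.09, and Neto2 and Neto1, auxiliary subunits of kainate receptors, fell by 1.89 ± 0.13 and 0.90 ± 0.07. Of 22 synaptic adhesion molecules, 19 were lower and 1 higher, but 8 were lower under all 3 scalings; Lrrc4c, a netrin-G ligand, fell by 1.14 ± 0.06. Of 40 postsynaptic signalling and trafficking genes, 23 were lower and 9 higher, and 16 and 9 under all 3 scalings. Nrgn, the calmodulin-binding neurogranin, fell by 1.35 ± 0.06 and Camk2n1, an inhibitor of the kinase, by 1.40 ± 0.08. The adaptor gene Lin7a fell by 1.80 ± 0.08. Of 12 genes of glutamate transport and metabolism, 8 were lower and 2 higher, all 10 of them under all 3 scalings. Glud1, which encodes glutamate dehydrogenase, fell by 1.91 ± 0.08, and Slc1a2, the main astrocytic glutamate transporter, by 0.99 ± 0.05. The other 2 receptor subunits measured, Grin3b and Grm6, were higher by 0.56 ± 0.08 and 0.33 ± 0.08, Grin3b alone under all 3 scalings.

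Cell type markers moved between the experiments as well. Of 79 markers measured in 12 lists, 48 (60.8%) were called lower and 7 (8.86%) higher in experiment 2, against 35.4% and 41.8% of all genes, and 65.5% and 17.9% of the brightest 4985. These markers share genes with the sets above. Grik4 is also among the receptor and scaffold genes, and Slc17a7, Slc1a2 and Slc1a3 are also in the list of glutamate transport and metabolism. The 4 excitatory neuron markers had a mean of 10.66 to 11.06 in experiment 1 and 10.13 to 10.37 in experiment 2, and the 6 astrocyte markers 10.70 to 10.99 and 9.94 to 10.11, without overlap. The 8 inhibitory neuron markers had 9.62 to 9.75 and 9.20 to 9.41, while the 5 microglia markers had 8.72 to 8.86 and 8.85 to 9.03. These means join markers that moved in opposite directions. Of the inhibitory neuron markers 4 were called lower and 2 higher in limma, and of the microglia markers 2 lower and 2 higher. Of the excitatory neuron markers 3 were called lower and 1 higher, and all 6 astrocyte markers were called lower. The part of these shifts in the differences of the receptor and scaffold genes was not tested.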

How the data were processed

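Whole hippocampi of 13 mice were profiled on Affymetrix whole-transcript arrays. The deposited values are log2 intensities per probe set, made by the authors with RMA in oligo, per the submitters' processing notes; the sources used here do not give the version or say whether all arrays were normalised together. Median polish in RMA can give tied values, so an SD near 0 in experiment 1 (4 genes in each genotype group held ties) can understate the spread.

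Of 35556 probe sets, the annotation lists 21789 with 1 gene and 1621 with several, which were left out. The 19938 genes were tested, each by its brightest probe set (999 had a choice). Tests used limma 3.58.1 (lmFit, eBayes) in R 4.3.3 on all 13 arrays, two-sided, with Benjamini-Hochberg adjustment over all genes and a threshold of 0.05. One model, with genotype and experiment as terms, gave the overall effect of each. Another, with 1 mean per group, gave the genotype effects within each experiment and their difference. Single genes were also tested by exact permutation of mice within experiments or genotypes. The scripts were tested on simulated data. The mice are separate animals, and their number limits the precision.

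The members, gene lists and rules were chosen with earlier results of these data known. Named were up to 8 members by p per comparison past the threshold, for genotype the 8 of lowest p whether or not they passed, the 3 of lowest p within each experiment and for the difference of effects, up to 5 that rose and 5 that fell most, and up to 4 genes per list. Same-numbered mice did not deviate together (correlations -0.23 to 0.22 between genotypes, -0.13 to 0.11 between experiments), so no pairing was used. Alternatives were the mean of all probe sets or every probe set, leaving out the lowest 30% or 50% of genes, median centring, quantile normalisation, trended and robust eBayes, array weights (statmod 1.5.0), a replicate block, the arrays of 1 experiment alone and leaving out each mouse. Leaving out wild-type replicate 2 of experiment 1 together with heterozygous replicate 3 of experiment 2, and each genotype alone, were added after seeing the data.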

Additional observations from a re-analysis of the deposited data

Results flagged for a closer look

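In the 4 wild-type mice of experiment 1, the highest or lowest mouse was set against the other 3 by its gap to the nearest of them as a share of the group's range, for the 36 genes and 12 marker lists. A share above Dixon's 95% critical value for 4 samples marks a mouse far from the others, which chance gives in about 1 of 20 groups; 5 of the 36 genes and 3 of the 12 lists exceeded it. Replicate 2 was the mouse in 6 of these 8. The 7 striatal projection neuron markers had a mean of 11.5 in it against 8.78 to 8.85 (share 0.976), the 4 excitatory neuron markers 10.66 against 10.91 to 10.92 (0.953), and the 8 choroid plexus markers 8.33 against 9.62 to 9.86 (0.84), where the 3 heterozygous mice of that experiment read 8.35 to 8.69. Among the receptor and scaffold genes, that mouse was high for the kainate receptor subunit Grik2, at 10.51 against 10.15 to 10.19 (0.878), and for the scaffold Shank3, at 9.92 against 9.75 (0.999). It was low for the scaffold Dlg3, at 9.90 against 10.18 to 10.23 (0.837). Replicate 4 was high for Grik4, at 10.22 against 9.95 to 9.99 (0.851), and replicate 3 for Grik5, at 11.11 against 11.03 (0.974); the small ranges of Grik5 and Shank3 include near-tied values.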

How the results depend on the processing

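No member was called for genotype, in either experiment or in both, or for the difference of the genotype effects, under any of the alternatives that were run, and no named difference changed direction. Between the experiments 25 to 31 of the 36 genes were called (28 as reported, 31 with median centring, 25 with quantile normalisation), and 28 to 29 when any 1 mouse was left out. Of all 19938 genes, 15385 were called as reported, 16257 with median centring, 13000 with quantile normalisation, and 14931 to 15594 with a mouse left out. Called higher were 2 members as reported (8331 of all genes), 6 with median centring (10025) and 7 with quantile normalisation (6947). There were 0 in heterozygous mice only, and 2 to 3 with a mouse left out, and the all-gene counts of genes called higher are not given here for these. With the replicate block the calls among the 36 genes were the same in number (0 for genotype, 28 between the experiments), and among all genes in experiment 1 there was 1 call in place of 4. Counts over all genes moved more. For genotype over both experiments (0), array weights gave 21, leaving out wild-type replicate 2 of experiment 1 with heterozygous replicate 3 of experiment 2 gave 1, and leaving out 1 mouse 0 to 2. For genotype in experiment 1 (4), every probe set, the lowest 50% of genes left out and quantile normalisation each gave 0, array weights 163, the arrays of that experiment only 2, and leaving out that pair of mice 79. Leaving out 1 mouse there gave 0 to 48: the count was 48 when wild-type replicate 2 was dropped, 2 for heterozygous replicate 1, and 0 for wild-type replicate 3 and for heterozygous replicates 2 and 3. For genotype in experiment 2 (0), quantile normalisation gave 4, and leaving out 1 mouse 0 to 91, with 91 without heterozygous replicate 1. Between the experiments (15385), every probe set gave 26086 and the lowest 50% of genes left out 8020, where more and fewer features were tested; the cause of the other moves was not tested. With the lowest 50% left out, 34 of the 36 genes remained, without Grik1 and Grm8.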
